A study of Mus musculus with 12 samples.

Results

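The genes described here encode the proteins of the mitochondrial ribosome in mouse embryonic fibroblasts (MEFs). They were chosen by name only, as every gene of the count tables whose symbol is Mrpl or Mrps, a number and at most 1 letter, which gave 77 of 20661 genes. No measured value entered the choice. Of the 77, 50 encode proteins of the large subunit and 26 of the small subunit. The remaining gene, Mrps36, carries the family name but its protein is now known as a subunit of the alpha-ketoglutarate dehydrogenase complex. Mrps18a and Mrps30 were counted with the large subunit, where their proteins sit despite the small-subunit symbols. The study sequenced total RNA and ribosome footprints, the fragments of mRNA that ribosomes protect from nuclease, from 3 groups of MEFs with 2 replicates of each, which gives 12 libraries. WT-shSCR cells (the controls) were wild type and carried a scrambled lentiviral shRNA, WT-shARF cells were wild type and carried an shRNA against ARF, and Arf-/--shSCR cells came from Arf knockout mice and carried the scrambled shRNA. All cells were labelled as passage 4. The labels give C57BL/6J for the wild-type cells and B6.129X1-Cdkn2atm1Cjs/KaiJ for the knockout, an allele in which a neo cassette takes the place of exon 1β of Cdkn2a. The study's methods name B6129SF2/J for the wild-type cells, so the sources disagree on the control strain. By either source the knockout differed from its control in strain as well as in Arf, and these cannot be told apart. The labels do not say whether the 2 replicates of a group were separate cultures, so the p-values measure only the spread between these samples.

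Mitochondrial ribosomes translate the few mRNAs of the mitochondrial genome, all of which encode membrane subunits of the respiratory chain and ATP synthase. Their RNA is made in the organelle, but every protein of the particle is encoded in the nucleus, translated in the cytosol by cytosolic ribosomes and imported. Many of these proteins have bacterial counterparts, and the others were gained in the mitochondrial lineage. Cytosolic ribosomal protein mRNAs are the classic 5′-TOP mRNAs, which begin with a C followed by an uninterrupted run of pyrimidines and are translated as a group in response to mTORC1. The mitochondrial genes offer a contrast, being ribosomal proteins that are not classed as 5′-TOP mRNAs.

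The first transcribed bases are shown because they carry this contrast. The RefSeq promoter table (GRCm38.p6) held 74 start windows for 68 of the 77 symbols. In 0 of the 74 did the annotated first base begin a C followed by at least 4 further pyrimidines, while 13 of the 66 windows of cytosolic ribosomal protein genes (19.7%) did, beside 2.51% of all 32851 windows in the table. A start base of C was present in 14.9% of the mitochondrial windows, 30.3% of the cytosolic windows and 16.3% of all windows. An annotated start can lie a few bases from the start used in a cell. When such a run was allowed to begin up to 5 bases to either side, it was found in 23.0% of the mitochondrial windows, 43.9% of the cytosolic windows and 18.3% of all windows. The lines below give 5 bases before and 20 bases from the annotated start of 7 mitochondrial genes that passed a test in footprints or RNA, and of 3 cytosolic genes with a pyrimidine run. Capitals mark the first base and, where it is C, the pyrimidines that follow it without a break.
Mrpl12 (chr11:120484632-120484656, plus strand): ctcccGgatagagcgtcgcttccgc
Mrps30 (chr13:118387233-118387257, minus strand): gttccGggtcgcggcgggcgaaaat
Mrpl48 (chr7:100608282-100608306, minus strand): gtcgcGcactcaccgctctgctctc
Mrpl21 (chr19:3283037-3283061, plus strand): gcgctGcttccgcttccggttggga
Mrpl46 (chr7:78783070-78783094, minus strand): catggGaacctggggttggctgagg
Mrpl10 (chr11:97041577-97041601, plus strand): cgcgcAtgggaacttcctgtagcga
Mrps21 (chr3:95871495-95871519, minus strand): gtcgcGggactccgtagcttccgct
Rps6 (chr4:86857348-86857372, minus strand): cgggcCTCTTTTTCgtgacgcctcc
Rpl15 (chr14:18270967-18270991, minus strand): gccttCTTCCTTTCCTCTggcggca
Rps10 (chr17:27635225-27635249, minus strand): cgcccCTTCCTTTCCagcctccgcc
All 7 mitochondrial genes shown started with a purine, but so did cytosolic genes that are not shown, such as Rpl12 and Rplp0. Mrpl48 was listed with 4 alternative starts of which the first is shown.

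The 300-base windows (250 bases before to 50 after the start) held other letters that recur in the family, searched on both strands. The core of sites bound by ETS factors, CCGGAAG, stood in 33.8% of the mitochondrial windows. It stood in 36.4% of the cytosolic windows, in 17.1% of the 11617 windows of genes tested for translation efficiency in these cells and in 8.86% of all windows. AAGATGGC, the core of YY1 sites, stood in 16.2% of the mitochondrial windows against 10.6% of cytosolic, 4.44% of tested and 2.75% of all windows. GCATGCGC, part of the site of NRF1, a known regulator of nuclear genes for mitochondria, stood in 10.8% of the mitochondrial windows against 4.55%, 5.29% and 2.71%. CACGTG, the E-box, and TATAAA, the TATA box, were no more frequent than in tested genes, at 9.46% and 6.76% against 9.9% and 7.16%. The ETS core is shown in capitals in 3 members with up to 9 bases on each side, and these matches are letters in a window, not sites shown to be bound.
Mrpl3 (chr9:105053240-105053264, plus strand): agaaacggaCCGGAAGtggcccggc
Mrps18a (chr17:46110969-46110993, plus strand): acccctgctCCGGAAGcggaagtgc
Mrpl51 (chr6:125192101-125192125, plus strand): ggggctaaaCCGGAAGtatttgact
The genes themselves were spread over 17 chromosomes, with at most 10 on 1 chromosome (chromosome 11), and their coding sequences were short, with a median of 576 nucleotides (range 195 to 1326) beside 1470 for the genes tested. By the GENCODE M21 gene models (GRCm38), 26 of the 77 (33.8%) had another protein-coding gene starting on the opposite strand within 1000 bases upstream, or overlapping the start by up to 500 bases. The same held for 18.4% of cytosolic ribosomal protein genes and 14.5% of genes tested. Mrpl46 and Mrps11, on chromosome 7, were such partners of each other, and their 5′ ends overlap by 412 bases in these gene models. The RefSeq start window of Mrpl46 shown above lies outside this overlap. Whether the overlap reaches the coding sequences that were counted was not checked.

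Total counts on genes ranged from 1578627 to 5157572 per library, and between 0.255% and 0.313% of them fell on the 77 genes. The median member had between 47 and 194 counts per library. All 77 passed the filter on low counts in every fit, and 75 had at least 10 counts in every library, the exceptions being Mrpl1 and Mrpl42. Cdkn2a, which encodes both ARF and INK4A and whose counts cannot separate them, was at 43.0 and 40.5 CPM (counts per 1000000 counts of a library, after TMM adjustment of its size) in the WT-shSCR RNA libraries, 26.7 and 31.3 CPM in Arf-/--shSCR and 624 and 658 CPM in WT-shARF. In footprints it was at 94.2 and 66.2, 42.0 and 36.3, and 540 and 782 CPM. Cdkn2a counts were thus higher in the WT-shARF libraries than in the controls in both readouts. Since these counts hold INK4A as well as ARF, they cannot show whether ARF itself was knocked down. The study reports knockdown of ARF in MEFs by immunoblot. WT-shARF or shARF below means only the libraries so labelled. The labelled cell type was checked against its markers. All 8 fibroblast markers were detected in every library, with summed levels of 15753 to 23942 CPM in RNA and 38755 to 55591 CPM in footprints. The 7 macrophage markers present in the files summed to 240 and 260 CPM in the WT-shSCR footprints, 130 and 145 CPM in those labelled WT-shARF and 22.5 and 24.7 CPM in Arf-/--shSCR. The 7 mesothelial or epithelial markers summed to 92.2 and 112 CPM, 73.8 and 98.4 CPM, and 181 and 181 CPM in the same order, with 0 to 3 of them at 0 counts. In the knockout footprints Krt8, Krt18, Krt19, Msln and Upk3b lay above both controls, while Cdh1 and Epcam were at 0 to 0.408 CPM. Endothelial markers summed to 11.2 to 32.5 CPM and myogenic markers to 44.2 to 138 CPM over all libraries. The myogenic sums were mostly Des, at 43.1 to 130 CPM, with Myod1 and Myog at 0 to 7.09 CPM. The part of these differences in the results below was not tested, and in bulk samples fewer cells of a type cannot be told apart from less RNA per cell.

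Summed over the family, ribosome footprints were higher in the other two groups than in WT-shSCR, and RNA sums lay closer together. The 77 genes summed to 2741 and 2557 CPM in the WT-shSCR footprints, 2978 and 3107 CPM in those labelled WT-shARF, and 3085 and 3053 CPM in Arf-/--shSCR. Neither group overlapped the controls, and their means were 14.9% and 15.9% above that of the controls. The RNA sums were 2950 and 2774 CPM in WT-shSCR, 2943 and 2881 CPM for WT-shARF, and 2960 and 3054 CPM in Arf-/--shSCR. The first of these pairs lay within the range of the controls and the knockout lay just above it, with a mean 5.06% higher. The 76 cytosolic ribosomal protein genes were measured in the same libraries. Their footprints summed to 46750 and 46515 CPM in WT-shSCR, 58395 and 61223 CPM for WT-shARF and 69888 and 69740 CPM for Arf-/--shSCR, which are means 28.3% and 49.7% above the controls. Footprints per RNA, taken from the sums, went from 0.926 in WT-shSCR to 1.05 in WT-shARF and 1.02 in Arf-/--shSCR for the mitochondrial genes. The ratio went from 0.658 to 0.910 and 0.977 for the cytosolic genes. Their RNA sums were 74017 and 67718 CPM in WT-shSCR, 65850 and 65569 CPM for WT-shARF, and 71310 and 71596 CPM for Arf-/--shSCR. Both WT-shARF sums lay below the controls, so the ratio there holds lower RNA as well as more footprints.

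**Figure D1:**
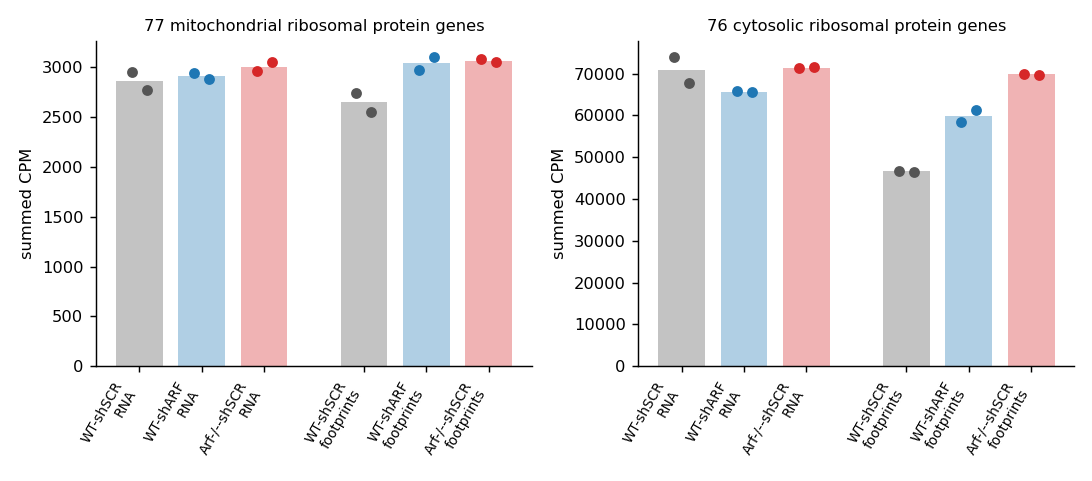
Summed level in CPM (vertical axis from 0) of the mitochondrial (left) and cytosolic (right) ribosomal protein genes in the 12 libraries; points are libraries and bars the mean of 2. The mitochondrial footprints lie between 2557 and 3107 CPM and the cytosolic footprints between 46515 and 69888 CPM.

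In control cells the mRNAs of the mitochondrial ribosomal proteins differed in abundance, though less than those of genes at large. Levels are compared between genes as CPM per kilobase of coding sequence, averaged over the 2 WT-shSCR libraries, for the 75 members with at least 10 counts in every library. Their median was 55.9 in both RNA and footprints, with a range from 12.8 to 242 in RNA and from 17.5 to 247 in footprints. Cytosolic ribosomal protein genes had medians of 1709 in RNA and 1186 in footprints. The spread between members, as the SD of log2 levels, was 0.97 in RNA and 0.92 in footprints, beside 0.82 and 0.64 for the cytosolic genes. For all genes with at least 10 counts in every library it was 1.85 and 2.01. The median log2 translation efficiency (TE, footprints over RNA) of the members in WT-shSCR was 0.09, beside 0.03 for all genes with this count and -0.33 for the cytosolic genes. It was 0.19 in the libraries labelled WT-shARF and 0.17 in Arf-/--shSCR, while the cytosolic median went to 0.06 and 0.22. The median of all genes with this count also went up, to 0.06 and 0.11 in the same order. The cytosolic median thus lay below that of the members in WT-shSCR and in the libraries labelled WT-shARF, and above it in the knockout. The value of 0.09 is smaller when either replicate is taken alone, at 0.02 and 0.05. Conserved and mitochondria-specific members overlapped widely. The median footprint level per kilobase was 63.1 for the 28 conserved and 38.6 for the 20 mitochondria-specific proteins of the large subunit, and 65.6 and 43.7 for the 16 and 10 of the small subunit.

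The highest footprint levels per kilobase in WT-shSCR were those of Mrpl52 (247), Mrps6 (203), Mrpl33 (197), Mrps14 (190) and Mrpl34 (182). The lowest were Mrpl44 (20.7), Mrps2 (19.7), Mrps35 (19.0), Mrpl46 (18.1) and Mrpl48 (17.5). By RNA per kilobase the order was led by Mrps23 (242), Mrpl20 (238), Mrpl52 (203), Mrps21 (199) and Mrpl33 (183), and closed by Mrpl50 (18.9), Mrps35 (17.9), Mrps31 (14.9), Mrps2 (14.7) and Mrpl47 (12.8). The coding sequence of Mrps6 overlaps that of another annotated gene, so its counts are uncertain. The TE order set other members at its ends. Mrpl27, whose bacterial counterpart reaches the peptidyl transferase centre, had a log2 TE of 1.98, and its value lay between 1.75 and 2.25 over the 4 pairings of a footprint library with an RNA library. Mrpl50 stood at 1.94 (1.87 to 2.01). They were followed by Mrpl32 at 1.29, Mrps33 at 1.20 and Mrps6 at 1.16. At the other end Mrps23 had a log2 TE of -2.49 (-2.56 to -2.42), so the member with the most RNA per kilobase had footprints of only 43.1 per kilobase, below the family median. Mrpl57 at -1.49, Mrpl30 at -1.28, Mrpl48 at -1.25 and Mrps24 at -1.15 came next, with ranges over the pairings that overlap one another. Mrps23 kept this place in the other groups, with RNA of 127 and 130 CPM in WT-shSCR, 120 and 94.6 CPM in WT-shARF and 117 and 118 CPM in Arf-/--shSCR. Its footprints were 22.1 and 23.6 CPM, 25.6 and 29.3 CPM, and 26.5 and 16.3 CPM.

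**Figure D2:**
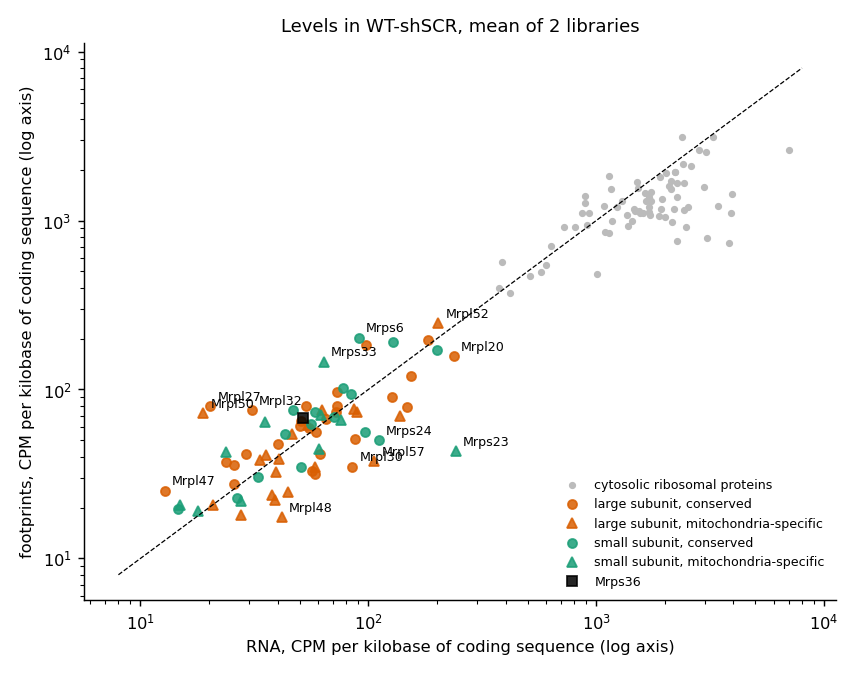
RNA (horizontal, log axis) against footprints (vertical, log axis) in CPM per kilobase of coding sequence in WT-shSCR, each point a gene and the mean of 2 libraries; the dashed line marks equal values, colours the subunit and symbols conserved or mitochondria-specific proteins. The members lie between 12.8 and 242 in RNA around the dashed line with Mrps23 far below it, and the cytosolic genes (grey) lie mostly below it at levels of 371 and above.

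The question of the knockout comparison is whether loss of Arf changed the translation or abundance of these mRNAs. In footprints, 5 of the 77 were higher in Arf-/--shSCR than in WT-shSCR and 0 were lower (edgeR quasi-likelihood test, adjusted p under 0.05), where 9.57% of all 10737 genes tested were higher and 8.95% lower. The share of 6.49% is below the background of 18.5% for either direction, so the number of calls does not set the family apart. The median log2 fold change of the members was 0.19 (quartiles -0.03 and 0.35), with 54 above 0, beside a median of 0.00 for all genes. Both knockout libraries lay above both controls for 35 members (45.5%) and below them for 4 (5.19%), beside 32.6% and 25.4% of all genes. The 5 genes that rose encode proteins of the large subunit.

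Mrpl12 encodes the mobile stalk protein that recruits translation factors, and its protein has also been found to bind the mitochondrial RNA polymerase. Its footprints were 58.2 and 50.1 CPM in WT-shSCR, 78.9 and 82.4 CPM in WT-shARF and 84.7 and 94.9 CPM in Arf-/--shSCR, and no library of the other groups overlapped the controls. The knockout rise was 0.66 ± 0.17 on the log2 scale (SE, adjusted p = 0.00394 by edgeR). Its RNA moved alongside, with 82.8 and 69.9 CPM in WT-shSCR and 102 and 121 CPM in the knockout, a log2 fold change of 0.53 ± 0.19 that did not pass (adjusted p = 0.102 by edgeR), and its TE changed by 0.11 ± 0.25. Mrps30, a large-subunit protein in spite of its name, had footprints of 34.7 and 31.1 CPM in WT-shSCR, 54.4 and 54.9 CPM in WT-shARF and 64.9 and 47.6 CPM in Arf-/--shSCR. The controls again lay below all other libraries, and the knockout difference was 0.71 ± 0.20 on the log2 scale (adjusted p = 0.0135 by edgeR). Its RNA overlapped between the groups, with 51.3 and 66.7 CPM in WT-shSCR and 63.8 and 61.3 CPM in the knockout.

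Mrpl48, which had the fewest footprints per kilobase in the controls among the 75 members with at least 10 counts in every library, went from 9.58 and 12.6 CPM to 21.0 and 27.4 CPM, a log2 fold change of 1.07 ± 0.33 (adjusted p = 0.0215 by edgeR). These rest on 29 and 32 counts in the controls, and Mrpl48 has a named pseudogene with which it could share reads. Mrpl16, a conserved protein near the centre of the large subunit, went from 18.8 and 22.5 CPM to 31.2 and 41.0 CPM (0.75 ± 0.26 on the log2 scale, adjusted p = 0.0376 by edgeR). Mrpl21, another conserved protein, went from 23.1 and 23.3 CPM to 40.0 and 37.4 CPM (0.67 ± 0.24, adjusted p = 0.0423 by edgeR). The RNA of Mrpl21 had the largest estimate of the family, 20.2 and 13.1 CPM in WT-shSCR against 31.9 and 30.9 CPM in the knockout, and did not pass (0.87 ± 0.31, adjusted p = 0.0929 by edgeR). In the opposite direction the smallest p belonged to Mrps21 (-0.43), Mrps6 (-0.34) and Mrps14 (-0.34), none of which passed. The 5 calls were sensitive to the method and to single libraries. By DESeq2 685 of all 10737 genes tested were higher and 620 lower, and Mrpl12 was the only member among them. With either WT-shSCR footprint library left out 0 members passed, and in those fits 0 of all genes tested passed either. Without Arf-/--shSCR replicate 1 there were 3 (Mrpl12, Mrpl16 and Mrpl48) and without replicate 2 there was 1 (Mrps30), while DESeq2 called Mrpl12 only.

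**Figure D3:**
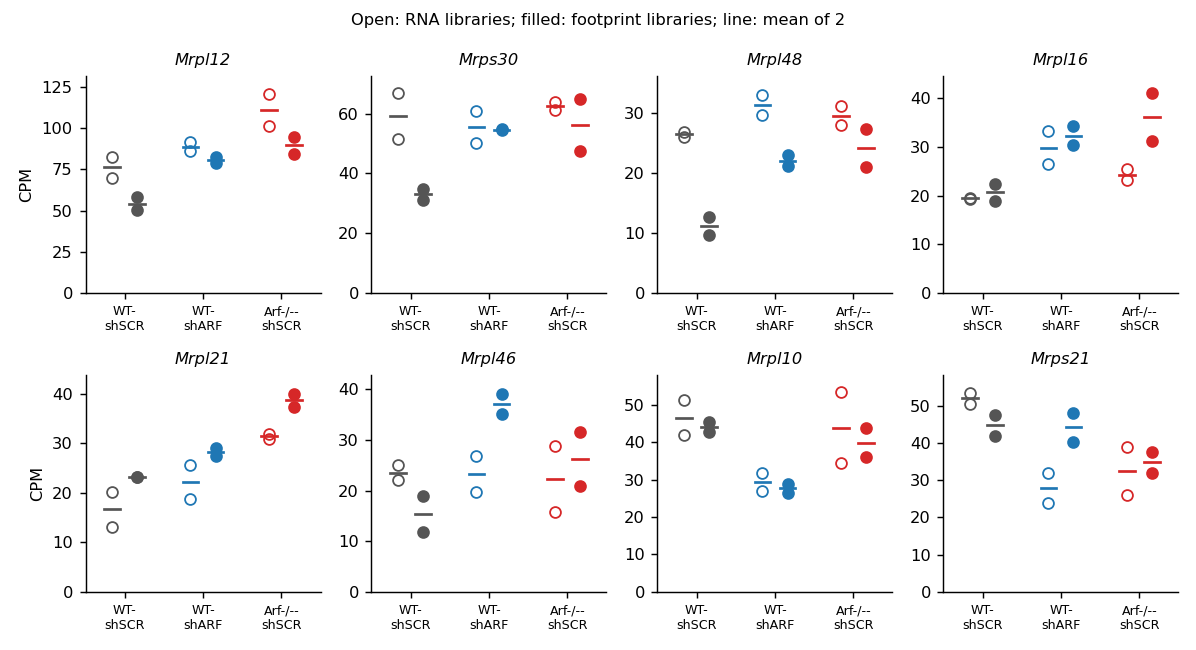
Level in CPM (vertical axis from 0) of the 8 members that passed a test in footprints or RNA, by group; open points are RNA libraries, filled points footprint libraries and lines the mean of 2. The footprints of Mrpl12, Mrps30, Mrpl48, Mrpl16, Mrpl21 and Mrpl46 are lower in both WT-shSCR libraries than in all other footprint libraries, while those of Mrpl10 are lowest in WT-shARF.

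The comparison of cells labelled WT-shARF with WT-shSCR shares its control libraries with the knockout comparison, so a low or high control value enters both. In footprints 2 members were higher and 1 was lower, beside 5.63% higher and 5.5% lower of 10307 genes tested and a share of 3.9% of members against 11.1% of all genes. The member median was 0.21 (quartiles -0.04 and 0.36) with 55 of 77 above 0. Both shARF libraries lay above both controls for 30 members (39.0%) and below for 7 (9.09%), beside 28.2% and 23.1% of all genes. Mrpl46, a protein specific to mitochondrial ribosomes, had the largest rise, from 11.9 and 18.9 CPM to 39.1 and 35.2 CPM (1.24 ± 0.30 on the log2 scale, adjusted p = 0.00441 by edgeR). It stood at 31.6 and 20.8 CPM in Arf-/--shSCR, and its RNA was level at 22.1 and 24.9 CPM, 19.8 and 26.8 CPM, and 15.8 and 28.8 CPM. Its head-to-head neighbour Mrps11 had footprints of 21.5 and 18.5 CPM in WT-shSCR and 12.8 and 17.1 CPM in WT-shARF, a difference of -0.45 that did not pass. Mrps30 rose here as well, by 0.69 ± 0.21 on the log2 scale (adjusted p = 0.0323 by edgeR).

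Mrpl10, which anchors the stalk proteins to the ribosome, was the member that fell. Its footprints were 42.6 and 45.3 CPM in WT-shSCR, 28.9 and 26.5 CPM in WT-shARF and 35.9 and 43.9 CPM in the knockout, a log2 fold change of -0.71 ± 0.24 for shARF (adjusted p = 0.0444 by edgeR). Its RNA was lower to the same extent, with 41.9 and 51.1 CPM against 27.0 and 31.6 CPM (-0.66 ± 0.23, adjusted p = 0.0749 by edgeR), and its TE was level at -0.04 ± 0.33. The 2 stalk proteins named so far therefore gave opposite estimates in the footprints labelled WT-shARF, since Mrpl12 stood 0.53 ± 0.18 above the controls there (adjusted p = 0.0516 by edgeR). These calls too depended on single libraries. Without WT-shSCR footprint replicate 1 there were 5 higher (Mrpl12, Mrpl38, Mrpl4, Mrpl55 and Mrps30) and Mrpl46 no longer passed, without WT-shARF replicate 1 Mrpl46 alone passed, and Mrpl10 passed in none of the 4 fits that left out 1 library.

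Few members passed a test in mRNA abundance, where the median SE of a member was 0.265 in the knockout and 0.25 for shARF. In the knockout 0 members passed in either direction by edgeR, where 7.93% of 10659 genes did (3.94% higher and 3.99% lower), with 3 higher and 1 lower at an unadjusted p under 0.05 (11% and 11.3% of all genes). DESeq2 called 0 members, beside 230 genes higher and 237 lower of the 10659. The median log2 fold change was 0.04 (quartiles -0.13 and 0.22), and both knockout libraries were above both controls for 24.7% of members and below for 18.2%, beside 25.9% and 25.7% of all genes. The members with the smallest p were Mrpl21 (0.87), Mrpl12 (0.53) and Mrps35 (0.72) above 0, and Mrps21 (-0.70), Mrpl22 (-0.71) and Mrpl53 (-0.50) below. In the libraries labelled WT-shARF 0 were higher and 1 was lower, beside 7.28% of 10503 genes called (3.11% higher and 4.17% lower), and the median was 0.00. Without WT-shSCR RNA replicate 1 the RNA medians were 0.10 (knockout) and 0.16 (shARF), and without replicate 2 they were 0.00 and -0.04. The gene that fell was Mrps21, which encodes a small conserved protein of the small subunit. Its RNA was 53.5 and 50.5 CPM in WT-shSCR, 23.9 and 31.9 CPM in WT-shARF and 26.0 and 38.8 CPM in Arf-/--shSCR, with the controls above every other library. The fold change was -0.90 ± 0.23 for shARF on the log2 scale (adjusted p = 0.0113 by edgeR) and -0.70 ± 0.25 for the knockout (adjusted p = 0.0886 by edgeR). Its footprints overlapped the controls for shARF, at 47.6 and 41.8 CPM in WT-shSCR and 40.2 and 48.1 CPM in WT-shARF. In the knockout they were 32.0 and 37.5 CPM, both below the controls like the RNA, a log2 fold change of -0.43 ± 0.21 that did not pass (adjusted p = 0.162 by edgeR). The call for Mrps21 was lost with DESeq2 and without WT-shARF RNA replicate 1, and without WT-shARF RNA replicate 2 Mrpl40 passed as well (0.82 ± 0.27 with all libraries, adjusted p = 0.0633 by edgeR). Without Arf-/--shSCR RNA replicate 2, Mrps21 passed in the knockout also. Mrpl18 (0.70) and Mrpl9 (0.63) had the next smallest p above 0 for shARF.

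Translation efficiency was tested as the interaction of library type and condition over 8 libraries, which asks whether footprints changed by another factor than RNA. No member passed in any comparison. In the knockout 0 of 77 passed by edgeR, beside 0.194% of 11314 genes (0.0884% higher and 0.106% lower), with 3 higher and 0 lower at an unadjusted p under 0.05 (2.88% and 3.95% of all genes). DESeq2 called 0 members, beside 62 genes higher and 13 lower of the 11314. For shARF 0 passed, beside 0.0354% of 11289 genes, with 4 higher and 1 lower unadjusted (3.81% and 2.84% of all genes). DESeq2 again called 0 members, beside 47 genes higher and 3 lower of the 11289. The member medians were 0.06 in the knockout (quartiles -0.15 and 0.28, 45 of 77 above 0) and 0.16 for shARF (quartiles -0.07 and 0.37, 52 of 77 above 0), beside -0.04 and 0.01 for all genes. The standard error of a single member was 0.35 and 0.36 at the median, so that a change of the cytosolic median was hard to detect for a single member. The smallest p in the knockout belonged to Mrpl22, a conserved protein lining the exit tunnel (1.05 ± 0.42), Mrpl48 (0.88 ± 0.41) and Mrpl50 (0.88 ± 0.43). Below 0 they were Mrps17 (-0.56), Mrps16 (-0.46) and Mrpl28 (-0.26). For shARF the smallest p belonged to Mrpl46 (1.25 ± 0.41), Mrpl38 (1.04 ± 0.37) and Mrps30 (0.81 ± 0.30), and below 0 to Mrpl27 (-0.90 ± 0.44), Mrpl18 (-0.50) and Mrpl41 (-0.54). The adjusted p of these genes ranged from 0.442 to 0.884 by edgeR.

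**Figure D4:**
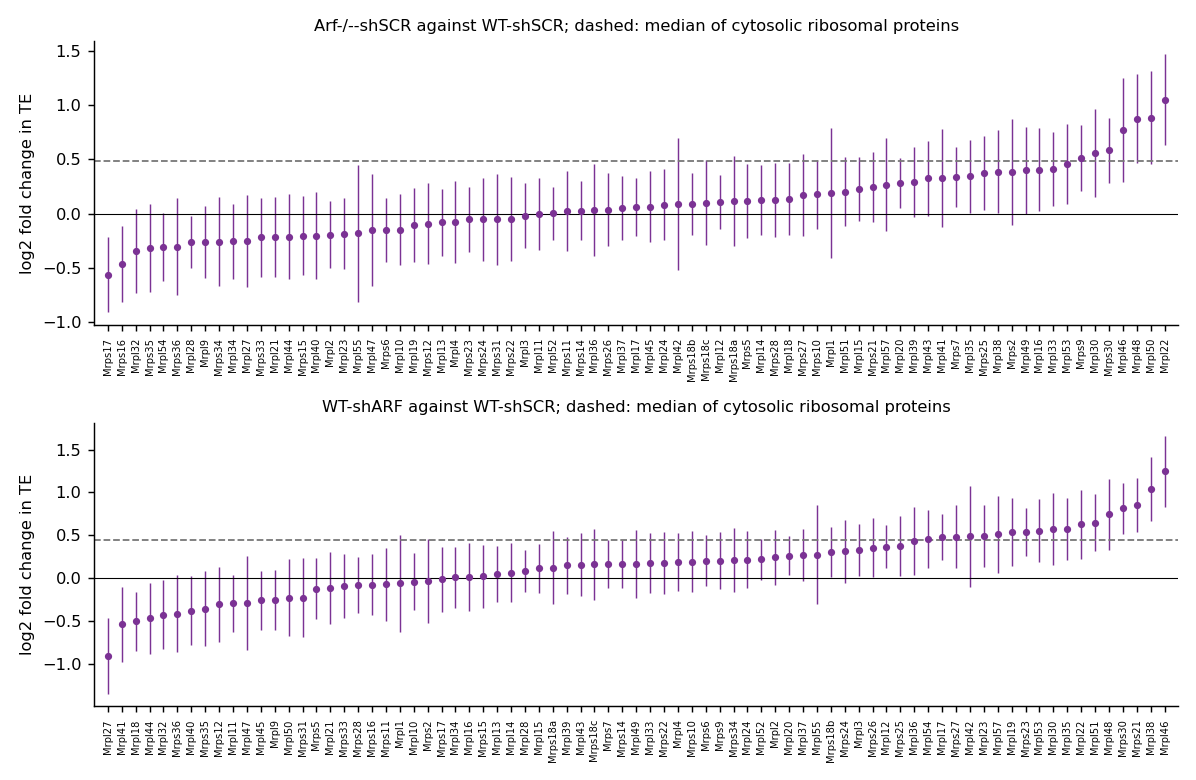
Log2 fold change in TE (vertical axis) of each of the 77 members with its standard error, ordered by value, for the knockout (top) and shARF (bottom) against WT-shSCR; the dashed line is the median of the cytosolic ribosomal protein genes (0.49 and 0.44). The members scatter around medians of 0.06 and 0.16, and none passed the test.

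Set beside the cytosolic ribosomal protein genes, of which 74 of 76 were tested, the mitochondrial genes moved less in footprints and TE. In the knockout all 74 cytosolic genes passed as higher in footprints (median 0.51, lowest 0.28, median SE 0.08). In TE all 74 estimates were above 0 (median 0.49, lowest 0.10). By edgeR 61 had a higher TE at an unadjusted p under 0.05, beside 2.88% of all genes, and 5 passed after adjustment. Of the 77 members, whose median SE was 0.22, 6 had a footprint estimate above the cytosolic median and 51 lay below the lowest cytosolic gene. The larger SE also spreads the member estimates, so the 51 is not a count of members shown to differ. The estimate was more than 2 standard errors below the cytosolic median for 25 members in footprints and for 11 in TE, and more than 2 standard errors above it for 0 in both. For shARF all 74 cytosolic TE estimates were again above 0 (median 0.44). By edgeR 65 had a higher TE at an unadjusted p under 0.05, beside 3.81% of all genes, and 1 passed after adjustment. In footprints 57 cytosolic genes passed as higher for shARF (median 0.33). Here the distance was smaller, with 22 members above the cytosolic footprint median, 12 more than 2 standard errors below and 1 more than 2 standard errors above. Since short coding sequences are common to both families, the trend of the fold changes on coding length was also removed. The footprint medians were then 0.17 (members) and 0.48 (cytosolic) in the knockout, and 0.17 and 0.27 for shARF. The TE medians were 0.03 and 0.44 in the knockout, and 0.06 and 0.32 for shARF.

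**Figure D5:**
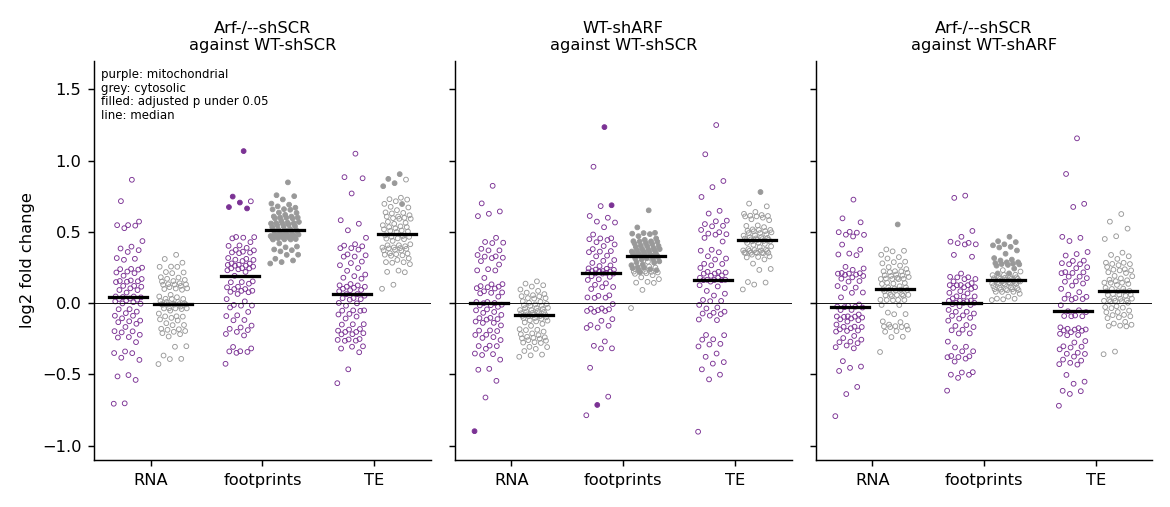
Log2 fold changes (vertical axis) in RNA, footprints and TE of the 77 mitochondrial (purple) and 74 cytosolic (grey) ribosomal protein genes for the 3 comparisons; each point is a gene, filled where the adjusted p was under 0.05, and the line is the median. In footprints of the knockout the cytosolic genes lie between 0.28 and 0.85, and the mitochondrial genes between -0.43 and 1.07.

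Within the family, the median footprint change was higher in both classes of the large subunit than in both classes of the small subunit. The large subunit holds 50 of the 77 members, so most positive estimates would fall there by its size alone. In the knockout the median was 0.26 for its 29 conserved and 0.24 for its 21 mitochondria-specific members, with 22 and 17 above 0. It was 0.00 for the 16 conserved members of the small subunit (8 above 0) and 0.16 for the 10 specific ones (7 above 0). For shARF, with the same controls, the medians were 0.22, 0.26, -0.02 and 0.20 in the same order, and the first and last of these lay close together. The difference between the classes was not tested. In that order the RNA medians were 0.12, 0.03, -0.04 and 0.04 in the knockout. For shARF they were 0.11, -0.0005, -0.08 and -0.01. The order seen in footprints did not hold in TE. The TE medians were -0.001, 0.27, 0.06 and -0.05 in the knockout, and 0.12, 0.28, 0.09 and 0.26 for shARF.

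Of the members followed for their place in the ribosome, whatever their values, those that follow did not pass the test in footprints against WT-shSCR. Mrpl11, at the base of the stalk beside Mrpl10, had footprints of 32.4 and 35.9 CPM in WT-shSCR, 36.5 and 40.0 CPM in WT-shARF and 37.9 and 46.3 CPM in Arf-/--shSCR. Its knockout and shARF footprint fold changes of 0.24 ± 0.21 and 0.13 ± 0.23 did not pass. Mrps12, of the decoding centre, had 28.7 and 28.4 CPM in WT-shSCR, 10.96 and 22.3 CPM in WT-shARF and 33.3 and 25.7 CPM in the knockout. Its shARF difference of -0.79 ± 0.32 did not pass (adjusted p = 0.114 by edgeR), although both libraries lay below the controls. Mrpl3 and Mrpl4, conserved proteins that assemble early around the ribosomal RNA, had knockout footprint changes of 0.39 ± 0.21 and 0.15 ± 0.24, and the control footprints of Mrpl4 were far apart at 50.55 and 22.5 CPM. Mrpl45, which ties the particle to the inner membrane at the exit tunnel, changed by 0.24 ± 0.21. The 3 Mrps18 paralogs occupy different places in the ribosome and gave 0.37 ± 0.30 (Mrps18a), 0.36 ± 0.18 (Mrps18b) and 0.01 ± 0.23 (Mrps18c) in knockout footprints, none past the test. Mrps36, which is not part of the mitochondrial ribosome and has 3 named pseudogenes, had 23.1 and 18.1 CPM in WT-shSCR, 21.2 and 20.3 CPM in WT-shARF and 20.8 and 19.0 CPM in the knockout, with overlap between all groups.

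The knockout was also compared directly with the libraries labelled WT-shARF, which tests whether their changes differed. By edgeR 0 members passed in footprints, beside 8.23% of 10941 genes (3.93% higher and 4.3% lower), with 4 higher and 7 lower unadjusted (10.5% and 10.5% of all genes). In RNA 0 passed, beside 2.57% of 10632 genes (1.38% higher and 1.19% lower), with 7 higher and 1 lower unadjusted (8% and 8.36% of all genes). In TE 0 passed, beside 0.043% of 11632 genes (0.0172% higher and 0.0258% lower), with 3 higher and 2 lower unadjusted (3.71% and 3.86% of all genes). DESeq2 called 0 members in each, beside 300 genes higher and 367 lower in footprints, 109 and 84 in RNA, and 11 and 7 in TE. The medians were 0.00, -0.03 and -0.06. Cytosolic genes were again higher in knockout footprints, 23 of 74 with a median of 0.16. Among the members the smallest p above 0 in footprints belonged to Mrps11 (0.74 ± 0.26), Mrps12 (0.75 ± 0.29) and Mrpl10 (0.51 ± 0.21), and below 0 to Mrpl38 (-0.50), Mrpl2 (-0.48) and Mrpl53 (-0.50). In RNA they were Mrpl17 (0.50), Mrpl19 (0.73) and Mrpl54 (0.50), and Mrpl33 (-0.59), Mrpl18 (-0.48) and Mrpl50 (-0.79). In TE they were Mrpl50 (1.16 ± 0.41), Mrpl18 (0.68) and Mrpl41 (0.91), and Mrpl54 (-0.72), Mrpl38 (-0.62) and Mrpl19 (-0.62). Mrpl50 rests on 15 to 55 RNA counts per library, its RNA being 8.68 and 9.36 CPM in WT-shSCR, 8.84 and 12.7 CPM in WT-shARF and 5.96 and 6.67 CPM in Arf-/--shSCR, and its footprints 35.02 and 34.3 CPM, 29.9 and 43.3 CPM, and 47.3 and 48.4 CPM. In RNA 2 members (Mrpl10 and Mrpl17) passed when Arf-/--shSCR replicate 1 was left out.

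Lists of genes that act with the mitochondrial ribosome held 0 to 2 called genes each in knockout footprints, where 9.57% of all genes tested were higher, so these short lists are not set apart by their calls. Of 6 mitoribosomal proteins with other symbols in the files, Ptcd3, a protein of the small subunit, rose in knockout footprints (0.69 ± 0.16, adjusted p = 0.00232 by edgeR) and in RNA for shARF (0.63 ± 0.19, adjusted p = 0.0422 by edgeR). Gadd45gip1, of the large subunit, rose in footprints for shARF (0.54 ± 0.17, adjusted p = 0.0328 by edgeR). These knockout calls rest on the same control footprint libraries as those of the members. Of 13 mitochondrial translation factors 1 was higher in knockout footprints, the elongation factor Tufm (0.39 ± 0.14), close to the threshold (adjusted p = 0.047 by edgeR). Of 20 tested assembly factors 2 were higher, Fastkd2 (0.98 ± 0.30) and Noa1 (0.96 ± 0.28), both known for assembly of the mitochondrial ribosome. The smaller adjusted p of the 2 was 0.0153 by edgeR. Fastkd2 was also higher than in the libraries labelled WT-shARF (0.95 ± 0.27, adjusted p = 0.0348 by edgeR). Of 9 genes of mitochondrial transcription and RNA 1 was higher, the RNA helicase Supv3l1 (0.93 ± 0.30, adjusted p = 0.027 by edgeR). Of 7 regulators of mitochondrial genes 1 was higher, the coactivator Pprc1 (0.51 ± 0.15, adjusted p = 0.0129 by edgeR). Of 17 mitochondrial aminoacyl-tRNA synthetases 0 passed in any readout by edgeR, with 1 higher and 0 lower at an unadjusted p under 0.05 in knockout footprints. The list medians in knockout footprints were between 0.19 and 0.45, and in these 6 lists no gene was lower in any readout or comparison and none passed in TE.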

How the data were processed

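The deposited tables hold raw read counts on coding sequences, 1 table per library. Per the labels and the study's methods, the authors clipped adapters, cut off the molecular identifiers (UMI-tools) and barcodes (cutadapt), removed reads on rRNA and other noncoding RNA with Bowtie2, aligned to mm10 with TopHat and counted with HTSeq. Versions, and whether the identifiers were used to collapse duplicates, are not given in the sources used here, so a count may not be 1 molecule. Footprints were cut with RNase T1, and RNA was fragmented to the same length range. Rows of unassigned reads were dropped, and nothing else was changed. Short footprints can map to several places, so pseudogenes and paralogs may share or lose reads.

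Totals were 1578627 to 5157572 counts per library. Counts were analysed in R 4.3.3 with edgeR 4.0.16 (filterByExpr, TMM factors, quasi-likelihood F test, Benjamini-Hochberg over all genes tested), with 4 libraries per RNA or footprint fit and 8 per TE fit. SE is the log2 fold change over the root of F. CPM use TMM factors over all 12 libraries. DESeq2 1.42.0, other scalings, filters, blocks and single libraries left out were alternatives. The scripts were tested on simulated counts. With 2 against 2 libraries an exact permutation test cannot go below 0.333, so none was used. Coding lengths and positions came from GENCODE M21 (GRCm38, the mm10 build), where all 77 members matched.

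The members, lists and tests were chosen with earlier results of these data known. Named were, per comparison and readout, all members called where at most 10 were, otherwise the 5 of smallest p per direction, and where none was called in a direction the 3 of smallest p. For levels they were the 5 highest and 5 lowest. 12 members were named for their place in the ribosome. Of the other lists, called genes were named. The 3 members shown with an ETS core, the cytosolic genes shown and members named only in fits that left out a library were chosen after their values were seen. The start window of 1 called member is not reported here. The 3 members with a named pseudogene are Mrpl23, Mrpl48 and Mrps36.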

Additional observations from a re-analysis of the deposited data

How the results depend on the processing

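In TE 0 members passed in all 3 comparisons under every alternative tried, and in footprints of knockout against knockdown likewise. In knockout footprints (5 in the main fit) an adjusted p under 0.01 left 1 member, DESeq2 1 and upper quartile factors 3, and leaving out 1 library gave 0 to 3. In shARF footprints (3) an adjusted p under 0.01 left 1, DESeq2 1, and all 3 groups in one fit gave 6, and leaving out 1 library gave 1 to 5. In shARF RNA (1) an adjusted p under 0.01 and DESeq2 left 0, no filter gave 2, and leaving out 1 library gave 0 to 2. In RNA of the knockout leaving out 1 library gave 0 to 1, and of knockout against knockdown 0 to 2. By DESeq2 414 of all genes were higher and 375 lower in shARF footprints, and 123 and 195 in shARF RNA. Fits that leave 1 library in a group assume that it varies like the others. With a replicate block 5 members passed in shARF footprints (4 higher and 1 lower) and 4 in shARF RNA (2 higher and 2 lower), and the block changed no other count of members called by over 1.5 times, TE by culture included. No pairing by replicate number was detected, as deviations of same-numbered libraries correlated between -0.083 and 0.053 over 8223 genes. These correlations cannot exclude that same-numbered libraries shared a culture or a batch. No member named for a call turned its direction. The median log2 fold change of the members ranged from 0.13 to 0.25 (knockout) and from 0.09 to 0.23 (shARF) in footprints, from -0.01 to 0.19 and from 0.06 to 0.21 in TE, and from 0.00 to 0.10 and from -0.04 to 0.16 in RNA. The median log2 TE in WT-shSCR was 0.0235 without replicate 2 and 0.0503 without replicate 1. The cause of these shifts was not tested. Counts of 8 to 517 per member and library limit what could be called.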
